A study of Homo sapiens with 6 samples.

Results

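BRA (brachyury, T) binding was examined across 2 clusters of FOX genes, FOXF1, FOXC2 and FOXL1 on chromosome 16 and their paralogs FOXQ1, FOXF2 and FOXC1 on chromosome 6. The members are all peaks of the 4 ChIP-seq lists whose midpoint lies between 86.000 and 87.000 Mb of chromosome 16 or between 1.263 and 1.665 Mb of chromosome 6, in the hg19 build. Together these windows hold 85 of the 54994 peaks, 60 on chromosome 16 and 25 on chromosome 6. The chromosome 16 window was selected on its R&D Systems peaks, because its excess of FLyB-only over FLyA-only peaks, 36 against 6, is the largest of all 1 Mb tiles. The difference between the media in those lists is therefore a description and was not tested.

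The cells were H9, a widely used line of human embryonic stem cells, taken through 36 h of differentiation in chemically defined medium. FGF2 (20 ng/ml) and the PI3 kinase inhibitor LY294002 (10 μM) were present in both media. FLyA medium added 100 ng/ml activin A and gives endoderm progenitors, and FLyB medium added 10 ng/ml BMP4 and gives mesoderm progenitors. BRA-bound DNA was sequenced in 1 library per medium with an R&D Systems antibody (AF2085) and in 1 library per medium with a Santa Cruz antibody (sc-20109), so no medium and antibody has a replicate. The input DNA libraries, 1 per medium, were not analysed here. With the R&D Systems antibody the lists number 25864 (FLyA) and 23687 (FLyB) peaks, and with the Santa Cruz antibody 2436 and 3007. Every peak is 400 bp wide and carries no height, fold enrichment or p-value. Read depth is therefore unknown, and a site absent from a list is not shown to be unbound. Peak lists hold no expression, so the cell types named in the labels could not be checked against their markers.

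BRA is a T-box transcription factor of the primitive streak that binds DNA and regulates nearby genes, often through enhancers far from the gene they control. Forkhead (FOX) proteins are transcription factors with a winged-helix DNA-binding domain, and these clusters are thought to descend from a single ancestral cluster that was duplicated in early vertebrates. FOXF1 and FOXF2 are expressed in lateral plate mesoderm and its derivatives, the mesenchyme of gut and lung. FOXC1 and FOXC2 act in paraxial mesoderm, somites and blood vessels, and FOXC2 also in lymphatic vessels. FOXL1 is a gene of the gut mesenchyme, and FOXQ1 is best known from epithelia. In the RefSeq gene order, FENDRR, a long non-coding RNA gene of lateral mesoderm, lies beside FOXF1, MTHFSD lies between FOXF1 and FOXC2, and GMDS, which encodes an enzyme of GDP-fucose synthesis, follows FOXC1.

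Upstream sequence was available in RefSeq (GRCh38.p14) for 3 of the 6 genes, all of the chromosome 6 cluster. It is shown because these genes name the chromosome 6 window. It covers the 250 bases before each annotated start, on the plus strand, 5′ to 3′. Capitals mark CACCT, part of the T-box recognition sequence, on either strand (AGGTG is the same letters read on the other strand). FOXQ1 (chr6:1311848-1312097), FOXF2 (chr6:1389326-1389575) and FOXC1 (chr6:1609665-1609914) are given in GRCh38 positions, which must not be compared with the hg19 positions of the peaks.
FOXQ1: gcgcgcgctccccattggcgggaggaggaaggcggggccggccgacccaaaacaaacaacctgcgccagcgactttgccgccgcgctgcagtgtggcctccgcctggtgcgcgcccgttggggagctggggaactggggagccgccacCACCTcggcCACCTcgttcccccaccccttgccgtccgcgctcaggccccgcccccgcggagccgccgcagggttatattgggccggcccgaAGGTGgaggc
FOXF2: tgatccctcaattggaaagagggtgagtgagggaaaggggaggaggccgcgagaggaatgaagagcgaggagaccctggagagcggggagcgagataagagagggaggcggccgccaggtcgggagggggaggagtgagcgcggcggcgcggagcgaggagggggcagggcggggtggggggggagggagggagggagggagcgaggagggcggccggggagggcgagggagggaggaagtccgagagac
FOXC1: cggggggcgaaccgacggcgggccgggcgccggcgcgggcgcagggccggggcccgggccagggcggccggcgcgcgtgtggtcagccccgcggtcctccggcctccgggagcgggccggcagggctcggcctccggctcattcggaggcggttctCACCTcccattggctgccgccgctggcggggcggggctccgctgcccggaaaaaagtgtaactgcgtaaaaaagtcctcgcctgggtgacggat
FOXQ1 had 3 matches, FOXC1 had 1 and FOXF2 had none, whereas 45.4% of the 35116 RefSeq promoters held at least 1 match in the same 250 bases. The longer T-box letters GGTGTGA, searched on both strands, were in none of the 3 sequences and in 2.76% of all promoters. All 3 were rich in G and C, at 74.0% for FOXQ1, 70.8% for FOXF2 and 76.8% for FOXC1, against a median of 58.0% over all promoters. A match is a run of letters and not a bound site. No genome of the hg19 build was used here, so the sequences of the peaks themselves were not read, and no peak was assigned to a gene or to an exon, intron or promoter.

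In the FOXF1, FOXC2 and FOXL1 window the R&D Systems antibody gave 42 peaks in FLyB and 12 in FLyA. FLyB peaks thus outnumbered FLyA peaks 3.50 to 1, whereas over the whole lists the ratio was 0.916. With the Santa Cruz antibody the window held 6 FLyB peaks and no FLyA peak. Both antibodies therefore gave more peaks in FLyB than in FLyA, although the whole Santa Cruz lists also held more FLyB (3007) than FLyA peaks (2436). Tiles of 1 Mb along the autosomes and chromosome X held a median of 7 R&D Systems FLyB peaks and 8 FLyA peaks. Of the 2841 tiles with a peak in any list, 6 held 42 or more FLyB peaks, and 836 held 12 or more FLyA peaks. The FLyA count was thus reached by 29.4% of tiles, while the FLyB count was near the top of the range. The Santa Cruz lists did not take part in the choice of the window, but most Santa Cruz FLyB peaks lie on R&D Systems FLyB peaks, so their number is not independent of it. At least 6 Santa Cruz FLyB peaks with no Santa Cruz FLyA peak were found in 6 tiles, this window included, which is 0.211% of the tiles. That limit was set by the counts of the window itself, and nothing is read from the share.

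**Figure D1:**
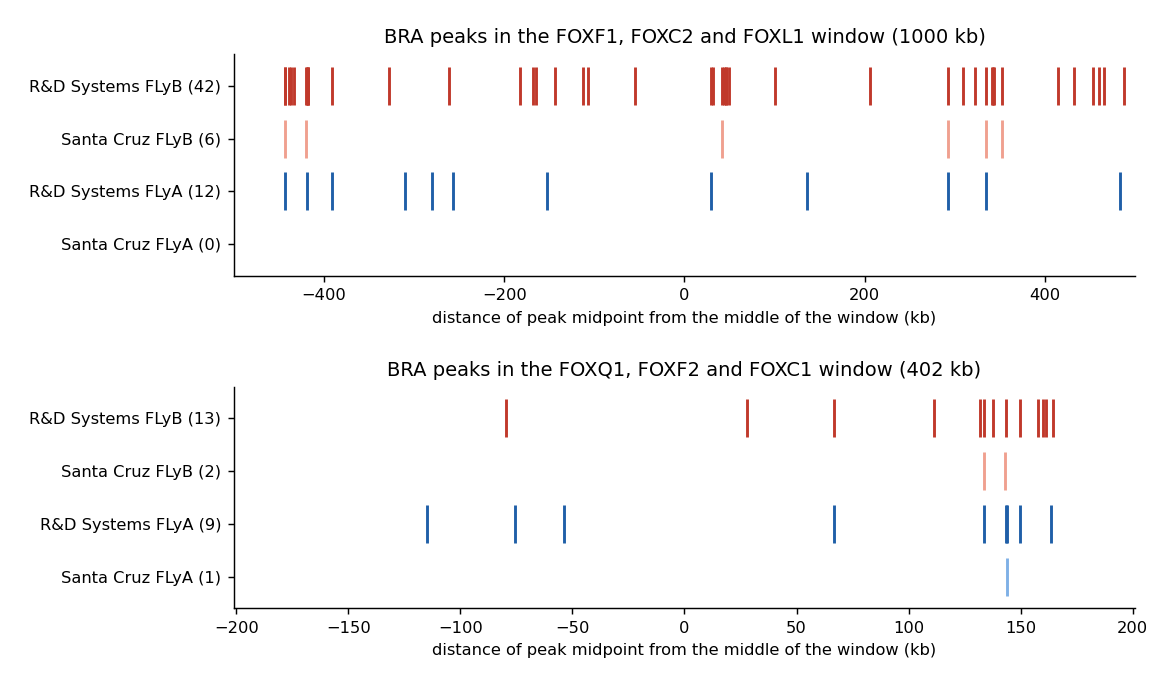
Positions of the BRA peaks in the FOX windows of chromosome 16 (top) and chromosome 6 (bottom). Each line is 1 peak, placed by the distance of its midpoint from the middle of the window in kb, and each row is 1 list with its number of peaks in brackets. FLyB peaks run through the whole chromosome 16 window, and most chromosome 6 peaks lie above the middle of their window.

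**Figure D2:**
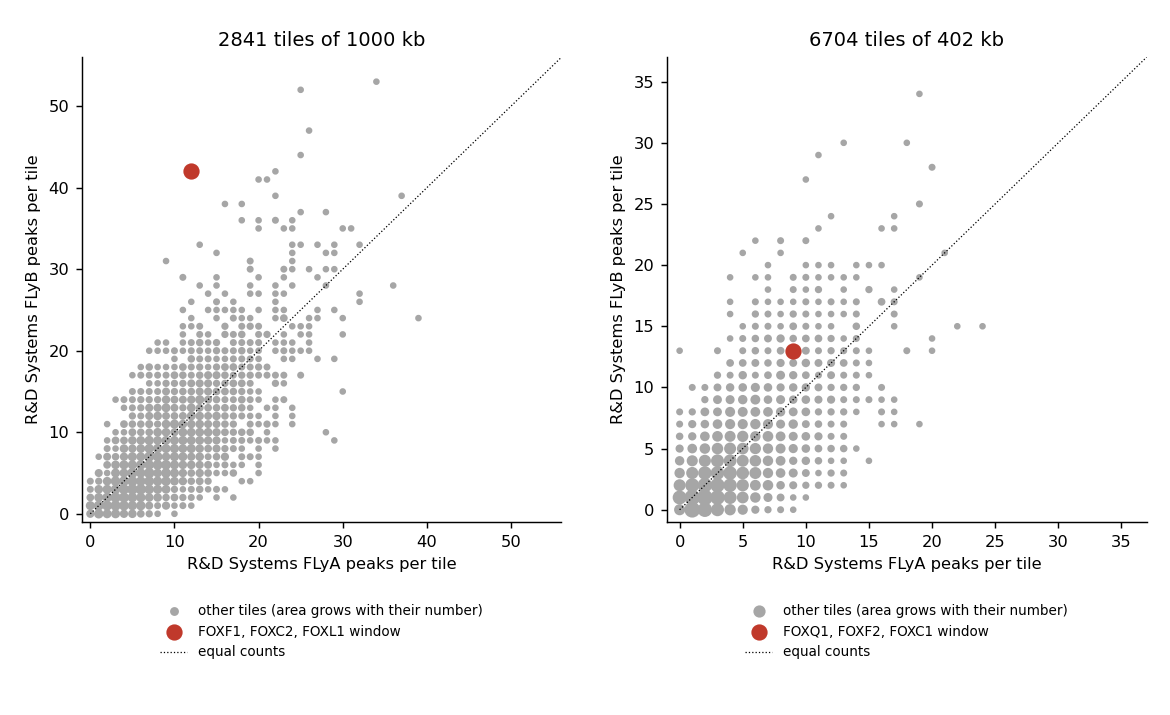
R&D Systems peaks per tile in FLyA (x axis) and FLyB (y axis), for 2841 tiles of 1000 kb (left) and 6704 tiles of 402 kb (right), each with at least 1 peak, on the autosomes and chromosome X. Grey points are tiles, with an area that grows with the number of tiles, the red point is the FOX window, and the dotted line marks equal counts. The chromosome 16 window, with 12 FLyA and 42 FLyB peaks, lies at the upper edge of the cloud, and the chromosome 6 window, with 9 and 13, lies within it.

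Joining overlapping peaks of the 4 lists gave 48 separate sites in the chromosome 16 window. Of these, 36 were found in FLyB alone (75%, 95% exact binomial interval 60.4 to 86.4%), 6 in FLyA alone (12.5%, 4.73 to 25.2%) and 6 in both media. Over the 43081 sites of all lists, the shares were 36.2% in FLyB alone, 43.7% in FLyA alone and 20.1% in both media. Counted by peaks, 36 of the 42 R&D Systems FLyB peaks overlapped no FLyA peak (85.7%, 71.5 to 94.6%), against 63.9% over the whole list. Of the 12 peaks in FLyA, 6 had no counterpart in FLyB (50%, 21.1 to 78.9%), against 67.0% over the whole list. The window was chosen on the FLyB-only and FLyA-only counts behind these shares, so nothing is read from the distance of either share to the background. These intervals cover counting error only and count each peak as separate evidence, although neighbours may not be.

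**Figure D3:**
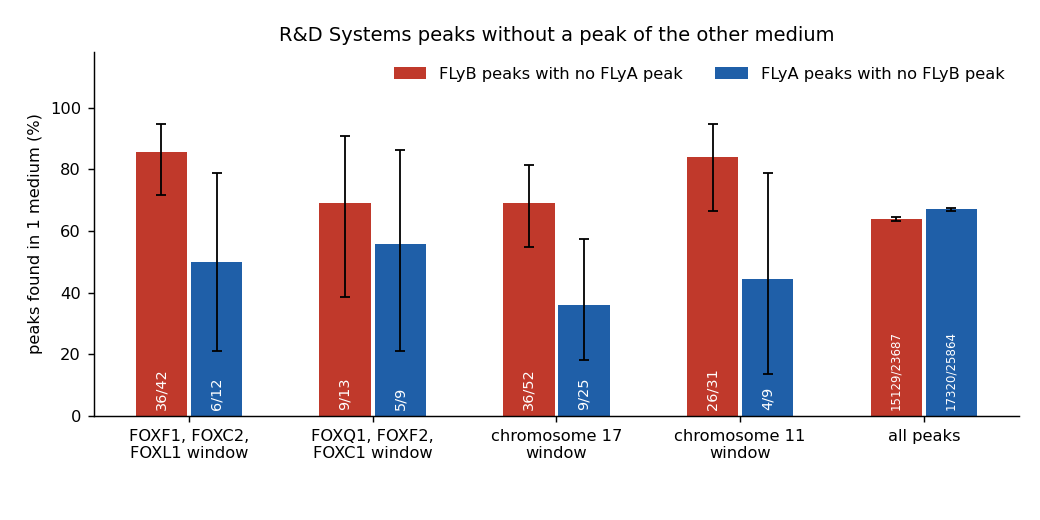
Share of R&D Systems peaks, in percent, that overlap no peak of the other medium, for FLyB (red) and FLyA (blue), with the number of peaks written in each bar. Error bars are 95% exact binomial intervals over peaks. The chromosome 17 and chromosome 11 windows are the 1 Mb windows that follow the chromosome 16 FOX window in excess of FLyB-only peaks. All 3 were chosen on the FLyB-only and FLyA-only counts behind these shares, so nothing is read from the height of their bars.

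The 6 sites that both media shared were placed alike in both. Their R&D Systems FLyA and FLyB midpoints lay a median of 26 bp apart, from 4 to 41 bp, against a median of 38 bp over all shared peaks. These sites were at chr16:86055885-86056360, chr16:86080521-86080960, chr16:86108310-86108725, chr16:86529413-86529816, chr16:86792438-86792900 and chr16:86834482-86834973. FLyB-only peaks had their nearest FLyA peak at a median midpoint distance of 14583 bp, from 726 to 83960 bp. Over all FLyB-only peaks the median was 23564 bp, and the difference was not tested. Peaks of 400 bp that do not overlap have midpoints at least 400 bp apart. The larger distance than at shared sites therefore follows from the definition. Of the 36 FLyB-only peaks, 13 had an FLyA peak at most 10 kb away (36.1%, 20.8 to 53.8%), which is close to the 31.1% of all FLyB-only peaks. Of the 6 FLyA-only peaks, 3 had an FLyB peak within 10 kb (50%, 11.8 to 88.2%), against 23.7% of all FLyA-only peaks, a value inside that interval.

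All 6 Santa Cruz FLyB peaks of the chromosome 16 window fell on an R&D Systems FLyB peak (100%, 54.1 to 100%), against 79.0% of the whole Santa Cruz FLyB list. From the other side, 6 of the 42 R&D Systems FLyB peaks had a Santa Cruz FLyB peak (14.3%, 5.43 to 28.5%), against 10.0% of the whole list. None of the 12 R&D Systems FLyA peaks had a Santa Cruz FLyA peak, a count that allows a share of up to 25%, and the whole list had 3.02%. At this depth of the Santa Cruz lists, an absence of FLyA peaks in the window cannot be told from too few calls. Of the 6 Santa Cruz FLyB peaks, 3 lay on R&D Systems peaks of both media, at chr16:86055885-86056284, chr16:86792438-86792837 and chr16:86834482-86834881. The other 3 lay where R&D Systems peaks were found in FLyB alone, at chr16:86079616-86080015, chr16:86541930-86542329 and chr16:86852579-86852978. The second of these was the closest match, with its midpoint 2 bp from that of the R&D Systems FLyB peak and 12513 bp from the nearest R&D Systems FLyA peak. The last was 16 bp from its R&D Systems FLyB peak and 18046 bp from the nearest FLyA peak. The first was 179 bp from its FLyB peak and 905 bp from an FLyA peak, and the next site, 326 bp beyond its own, was shared by both media. The first was no longer FLyB-only when peaks at most 500 bp apart counted as shared. The same held for the R&D Systems FLyB peak at chr16:86056712-86057111, 351 bp beyond a shared site. This left 34 of the 42 FLyB peaks without an FLyA peak (81.0%). By overlap of at least 1 bp, an FLyB peak of both antibodies without an FLyA peak was thus found at 3 places in the window.

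Sites of the chromosome 16 window were spread along its length. Below its middle lay 19 R&D Systems FLyB and 7 FLyA peaks, and above it lay 23 and 5. The median gap between neighbouring sites was 10.2 kb, and the widest gap was 86.2 kb. When sites at most 10 kb apart were joined, 34 of the 48 sites fell into 11 groups of at least 2, and 4 of these groups held no FLyA peak. Such groups were not counted over all chromosomes. Those without an FLyA peak follow in part from how the window was chosen. The largest groups had 5 sites each. At chr16:86055885-86067111, 4 of the 5 sites were in FLyB alone and 1 was shared. At chr16:86541930-86549650, a stretch of 7.72 kb, all 5 sites were in FLyB alone, and 1 of them was also found with the Santa Cruz antibody. At chr16:86834482-86852978, 4 of the 5 sites were in FLyB alone, and 2 of the 5 were also found with the Santa Cruz antibody. A shorter group at chr16:86079616-86082827 held 4 sites in 3.21 kb, of which 3 were in FLyB alone.

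Stretches between neighbouring R&D Systems FLyA peaks of the window held between 0 and 9 FLyB peaks. The stretch with the most, between the FLyA peaks that end at 86834932 and start at 86983183, held 9 FLyB peaks over 148 kb. Another, of 106 kb from 86529817, held 7, and a stretch of 24.2 kb held 5. Over all chromosomes, 0.0697% of the 25817 stretches between neighbouring R&D Systems FLyA peaks held 9 or more FLyB peaks, and 0.298% held 7 or more. These counts are part of the excess on which the window was chosen and give no further support to it.

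In the FOXQ1, FOXF2 and FOXC1 window, which is 402 kb long, the R&D Systems antibody gave 13 FLyB and 9 FLyA peaks, and the Santa Cruz antibody gave 2 FLyB peaks and 1 FLyA peak. The ratio of FLyB to FLyA peaks was 1.44, above the 0.916 of the whole lists and below the 3.50 of the chromosome 16 window. Per 100 kb, the window held 3.23 R&D Systems FLyB peaks, against 4.2 on chromosome 16, and 2.24 FLyA peaks, against 1.20. The chromosome 16 values come from the lists on which that window was chosen, so the densities of the paralog clusters are given side by side and were not compared. Among tiles of 402 kb, the median was 3 peaks in either medium. Of the 6704 tiles with a peak, 197 (2.94%) held 13 or more FLyB peaks and 508 (7.58%) held 9 or more FLyA peaks.

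The chromosome 6 window held 18 sites. Of these, 9 were found in FLyB alone (50%, 26.0 to 74.0%), 5 in FLyA alone (27.8%, 9.69 to 53.5%) and 4 in both media (22.2%, 6.41 to 47.6%). Of the 13 R&D Systems FLyB peaks, 9 overlapped no FLyA peak (69.2%, 38.6 to 90.9%), and 5 of the 9 peaks in FLyA had no counterpart in FLyB (55.6%, 21.2 to 86.3%). Both intervals include the shares of the whole lists, 63.9% and 67.0%. Such shares count peaks without an overlap and do not tell in which medium the cluster had more binding. A preference of the chromosome 6 cluster for either medium was not tested. The interval of the FLyB share also overlaps that of the chromosome 16 window. With 13 peaks here, and a chromosome 16 window chosen on its FLyB-only peaks, this overlap does not tell whether the clusters differ.

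Peaks of the chromosome 6 window were gathered near its upper end. Below its middle lay 1 R&D Systems FLyB peak and 3 FLyA peaks, and above it lay 12 and 6. A single group at chr6:1595903-1628799, with 32.9 kb and thus 8.18% of the window, held 11 of the 18 sites. It contained 9 FLyB and 5 FLyA peaks of the R&D Systems lists and all 3 Santa Cruz peaks. The remaining 369 kb held 4 FLyB and 4 FLyA peaks. Peaks of both media thus lay side by side in this group. Of the 9 FLyB-only peaks of the window, 7 had an FLyA peak within 10 kb (77.8%, 40.0 to 97.2%), against 31.1% of all FLyB-only peaks. The median midpoint distance of the 9 to the nearest FLyA peak was 4021 bp, against 23564 bp over all FLyB-only peaks. The group at chr6:1595903-1628799 alone held 6 FLyB-only sites beside its 5 FLyA peaks. These peaks are therefore not separate evidence, and the difference from the list was not tested. The longest run of FLyB peaks between neighbouring FLyA peaks was 3, over 13.4 kb. Of the 5 FLyA-only peaks, 3 had an FLyB peak within 10 kb (60%, 14.7 to 94.7%), against 23.7% of all FLyA-only peaks.

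A pair of neighbouring sites of this group was covered by both antibodies. The site at chr6:1607038-1607644 carried R&D Systems peaks of both media and a Santa Cruz FLyB peak. The next site, 103 bp further at chr6:1607748-1608164, carried the only Santa Cruz FLyA peak of either window, which lay 17 bp from its R&D Systems FLyA peak, and no FLyB peak of either antibody. When peaks at most 500 bp apart counted as shared, this FLyA-only call was lost, and 4 of the 9 FLyA peaks remained without an FLyB peak (44.4%). In this window, both antibodies thus met at 1 of 9 FLyA calls made with the R&D Systems antibody (11.1%, 0.281 to 48.2%). The whole R&D Systems FLyA list had 3.02%, a value inside that interval. Counted from the Santa Cruz side, the window gave 1 of 1 (100%, 2.50 to 100%), and the whole Santa Cruz FLyA list gave 31.9%. With 1 Santa Cruz FLyA call, these shares do not tell whether the window differs from the lists. The other Santa Cruz FLyB peak, at chr6:1597420-1597819, also fell on a site of both media, 87 bp from the R&D Systems FLyB peak and 58 bp from the FLyA peak. The shared sites at chr6:1530559-1530997 and chr6:1613694-1614128 had no Santa Cruz peak.

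Across both windows, Santa Cruz FLyB peaks were set against the R&D Systems peaks of both media and of FLyB alone. A Santa Cruz FLyB peak lay on 5 of the 10 R&D Systems FLyB peaks that were shared with FLyA (50%, 18.7 to 81.3%) and on 3 of the 45 that were not (6.67%, 1.40 to 18.3%). On chromosome 16 these counts were 3 of 6 and 3 of 36, and on chromosome 6 they were 2 of 4 and 0 of 9, where a count of 0 allows up to 33.3%. Over the whole list, the shares were 14.6% of shared and 7.47% of FLyB-only peaks. These are counts of 10 and 45 peaks from 1 library, split into the classes on which the chromosome 16 window was chosen, and the difference from the list was not tested. Counted from the Santa Cruz list, 5 of the 8 FLyB peaks of the windows lay on an R&D Systems FLyA peak (62.5%, 24.5 to 91.5%), against 43.1% of the whole list. The midpoints of the 8 Santa Cruz FLyB peaks lay a median of 65.5 bp from those of the R&D Systems FLyB peaks, from 2 to 179 bp, against a median of 31 bp over all 2377 overlapping pairs.

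**Figure D4:**
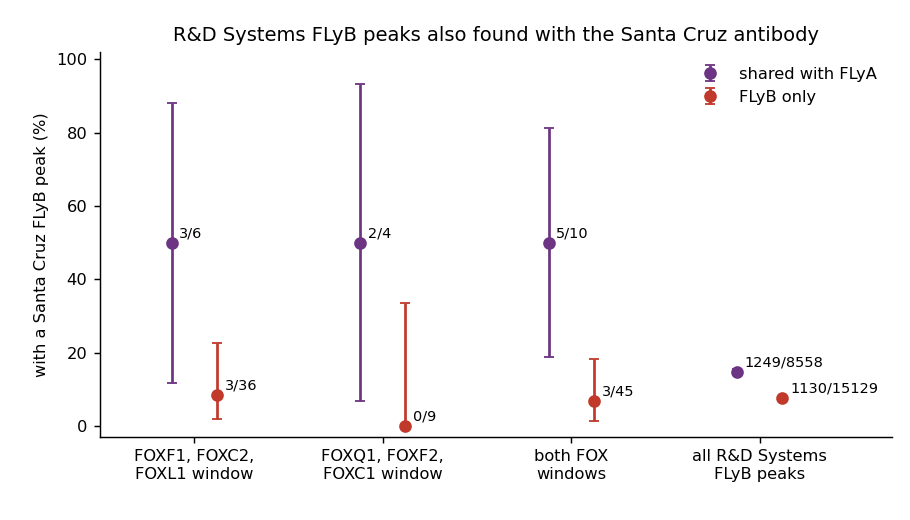
Share of R&D Systems FLyB peaks, in percent, that also had a Santa Cruz FLyB peak, for peaks shared with FLyA (purple) and FLyB-only peaks (red), with the counts beside each point. Bars are 95% exact binomial intervals over peaks. In both windows the purple point is at 50% and the red point is below 10%, over wide intervals.

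The FOXF1, FOXC2 and FOXL1 window was set beside the windows that followed it in excess of FLyB-only peaks. A 1 Mb window on chromosome 17 held 52 R&D Systems FLyB and 25 FLyA peaks, with 6 Santa Cruz FLyB and 3 Santa Cruz FLyA peaks. There, a Santa Cruz FLyB peak lay on 5 of 36 FLyB-only peaks (13.9%, 4.67 to 29.5%) and on 1 of 16 shared peaks. A 1 Mb window on chromosome 11 held 31 FLyB and 9 FLyA peaks, a ratio of 3.44 beside the 3.50 of the FOX window, with 3 Santa Cruz FLyB peaks and 1 Santa Cruz FLyA peak. These 3 Santa Cruz FLyB peaks lay on 3 of the 5 shared peaks (60%, 14.7 to 94.7%), and none lay on the 26 FLyB-only peaks, which allows up to 11.5%. In the FOX window, 3 of 36 FLyB-only peaks had a Santa Cruz FLyB peak (8.33%, 1.75 to 22.5%). The 7.47% of the whole list lies within the interval of the FOX and chromosome 17 windows and below the limit on chromosome 11. These differences between windows were not tested.

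Peaks were also found outside both windows, while the lower edge of each window lay in a stretch without a site. On chromosome 16, the last site below the window lay 232 kb outside it and the first site inside lay 55.9 kb from the edge. At the upper end, an FLyB-only site lay 11.9 kb inside and another 4.83 kb outside. The 1 Mb below the window held 44 R&D Systems FLyB and 25 FLyA peaks, and 28 of the 44 overlapped no FLyA peak (63.6%, 47.8 to 77.6%). The 1 Mb above it held 18 FLyB and 19 FLyA peaks, a ratio of 0.947. The window itself held 42 and 12, and its lower FLyA count follows in part from how it was chosen. The Santa Cruz antibody gave 4 FLyB peaks below and 3 above the window, and all 7 fell on an R&D Systems FLyB peak. On chromosome 6, the last site below the window lay 60.1 kb outside it and the first site inside lay 86.0 kb from the edge. The 402 kb below this window held 1 FLyB and 4 FLyA peaks, and the 402 kb above it held 14 and 4. Of these 14 FLyB peaks, 11 overlapped no FLyA peak (78.6%, 49.2 to 95.3%), an interval that includes the 63.9% of the whole list. The nearest of these sites lay 43.3 kb above the edge of the FOXQ1, FOXF2 and FOXC1 window.

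**Figure D5:**
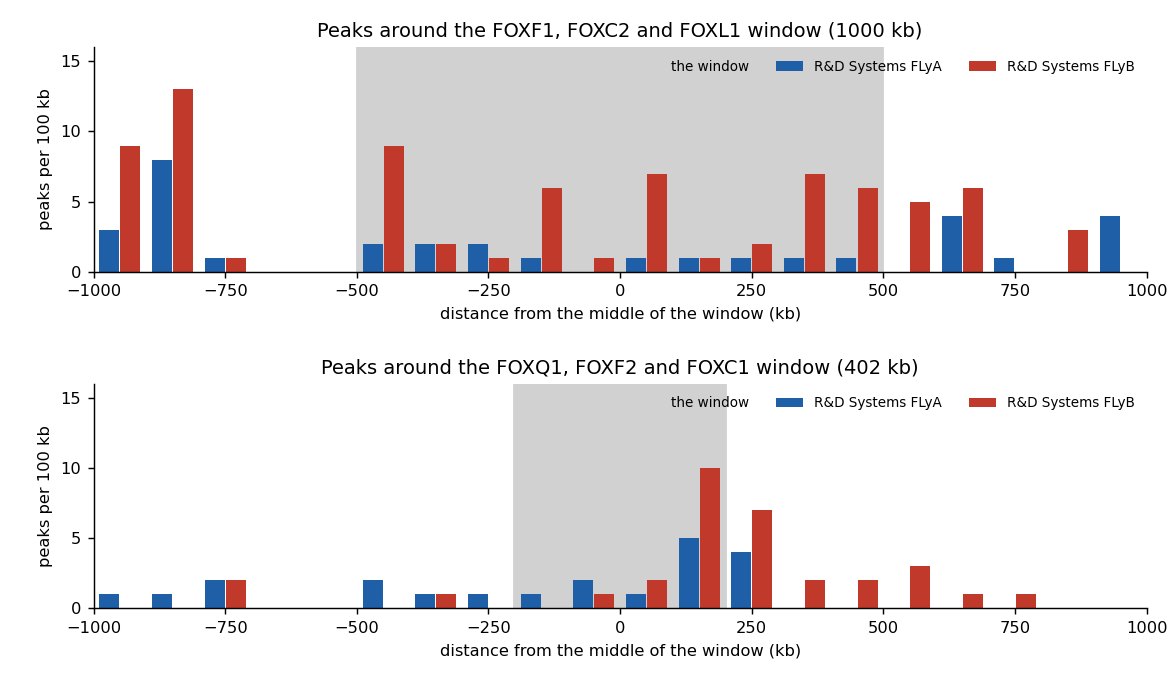
R&D Systems peaks per 100 kb in FLyA (blue) and FLyB (red) within 1000 kb of the middle of each FOX window, by distance from that middle in kb. The grey band is the window. On chromosome 16 the bars of FLyB reach 9 per 100 kb inside the window and 13 below it, and on chromosome 6 both media peak at the upper end of the window, with 10 FLyB and 5 FLyA peaks in 1 step.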

How the data were processed

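The authors sequenced BRA ChIP DNA of H9 cells on the Genome Analyzer II and called peaks with MACS, and deposited 1 list per library. The submitters' processing notes name Bowtie 0.12.7 and the hg19 build. A threshold of 1e-12 stands in the track lines of the Santa Cruz lists, and for the R&D Systems antibody it is not given in the sources used here. The deposited lists give positions only (printed here counted from 1), with no score, so depth and peak height are unknown. Whether the antibodies shared an input control was not tested.

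Peaks were placed by midpoint, and peaks of different lists that overlapped by 1 bp or more were called shared. Intervals are exact (Clopper-Pearson) at 95% and cover counting error only, and a count of 0 was taken to allow 3. With 1 library per medium and antibody, no test across samples was run. Python 3.11.15, NumPy 2.4.6, SciPy 1.17.1, bedtools 2.31.1 and matplotlib 3.10.9 were used. The overlap functions were tested on simulated data and against bedtools. The members and comparisons were chosen with earlier results of these data known. The genes named are the 6 FOX genes of the windows and RefSeq neighbours. Sites printed by position were chosen after their values were seen. Distances to genes, motifs in peaks and counts near other FOX genes were planned and not run, as no hg19 annotation or genome was used here.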

Additional observations from a re-analysis of the deposited data

How the results depend on the processing

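Of 55 recalculated values for 17 counts and shares, 49 stayed within the 95% interval of the share, or within 1.5 times the count, given above. These include midpoints at most 200 bp apart, peaks at most 500 bp apart, merged antibodies, overlapping peaks of a list merged, any overlap with the window, and windows widened by 50 kb on each side, the last chosen after seeing the data. Merging the peaks of a list and any overlap with the window left every count unchanged. Several intervals were wide, such as 21.1 to 78.9%, so a value that stayed within them is a weak check. Shares from the Santa Cruz lists alone, or from peaks found with both antibodies, fell outside these intervals. In the Santa Cruz lists alone, 100% of FLyB peaks lacked an FLyA peak, on chromosome 16 (6 of 6) and on chromosome 6 (2 of 2). On chromosome 6, 100% of FLyA peaks lacked an FLyB peak (1 of 1). The chromosome 16 value was fixed in advance, as that window held no Santa Cruz FLyA peak. The chromosome 6 window held 1 Santa Cruz FLyA peak, so nothing is read from these shares. Some R&D Systems FLyB peaks had a Santa Cruz FLyB peak on them. Of these, the share without an FLyA peak was 50% on chromosome 16 (3 of 6) and 0% on chromosome 6 (0 of 2). Over the whole lists, 1130 of 2379 such peaks were without an FLyA peak, so the chromosome 16 value is not particular to that window. The cause of these differences in share was not tested. With gaps of at most 5 kb, the chromosome 6 window held 4 groups of at least 2 sites in place of 2. The chromosome 16 window then held 8 such groups in place of 11. The Santa Cruz lists hold no FLyA peak in the chromosome 16 window, so no FLyA share could be given there. A stricter peak threshold could not be applied, as the lists hold no score. Alternatives for distances to gene starts, windows set by the genes and motifs in peaks were not run. No paired analysis was possible because there is 1 library per medium and antibody and the labels carry no replicate number. Depth is unknown and limits every call that a site was bound in a single medium.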
